A study of Mus musculus with 4 samples.

Results

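B cells of murine trabecular bone were picked out of single-cell RNA-Seq counts from a control mouse library and from a glucocorticoid (GC) library, both collected at week 2. A cell barcode was kept when it had at least 500 unique molecular identifiers (UMIs, each marking a captured RNA molecule), at least 200 genes and at most 10% mitochondrial UMIs. It was taken as a B cell when it held at least 1 UMI of Cd79a and at least 3 of Cd79a, Cd79b, Ms4a1 and Ighm together, when the plasma cell gene Jchain was under 0.5% of its UMIs, and when Siglech, a plasmacytoid dendritic cell gene, was at 0. Of 8765 kept barcodes of trabecular bone, 371 were B cells by these limits, 353 in control and 18 in GC. The whole series had 23216 kept barcodes. All 371 were selected on measured counts of these 6 genes, so the levels of those genes in them are a description and not a finding.

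The mice were 20-week-old C57BL/6J males with a slow-release pellet under the skin, of placebo in the control group and of prednisolone at 6.25 mg/kg/d in the GC group. The labels describe marrow plugs and crushed bone digested with Collagenase II, Dispase II and DNase I and name no cell sort. Each condition has 1 library of this tissue, and the number of mice behind a library is not given in the sources used here. There was therefore no replicate check and no test between conditions, and every interval below is a 95% interval for counting error only.

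B lymphocytes are made in the bone marrow. A pro-B cell rearranges its heavy-chain gene with the Rag recombinase while interleukin 7 from stromal cells sustains it. The new heavy chain is first tried with a surrogate light chain, built from Vpreb1 and Igll1 (lambda5), in the pre-B cell receptor. The large pre-B cells that pass divide, then stop and rearrange a light chain, and the immature B cell with a complete receptor goes on to gain Ms4a1 (CD20), IgD and MHC class II before it leaves or returns as a recirculating cell. Early B cell precursors are known to be sensitive to GCs.

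The surrogate light chain and recombinase genes mark these stages, and the bases upstream of their starts are shown because 3 of the 4 genes below were not seen in any GC B cell. They are the 250 bases before the gene start that RefSeq gives on GRCm38.p6, 5′ to 3′ on the gene's strand, with motif matches in capitals. The motifs searched on both strands were the core of the EBF1 site (CCCNNGGG), the octamer (ATGCAAAT, or ATTTGCAT on the other strand) and an E-box (CAGCTG). The Vpreb1 window is chr16:16869256-16869505 on the minus strand, Igll1 chr16:16863986-16864235 on the minus strand, Vpreb3 chr10:75948050-75948299 on the plus strand and Rag1 chr2:101649533-101649782 on the minus strand. In the GENCODE M21 annotation the windows of Vpreb1 and Vpreb3 lie inside the span of their own gene, and those of Igll1 and Rag1 lie upstream of it.
Vpreb1: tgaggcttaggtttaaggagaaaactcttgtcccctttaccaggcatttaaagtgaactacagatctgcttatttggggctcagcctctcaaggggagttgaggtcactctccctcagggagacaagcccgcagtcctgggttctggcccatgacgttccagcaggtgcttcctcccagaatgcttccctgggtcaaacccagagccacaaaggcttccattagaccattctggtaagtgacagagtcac
Igll1: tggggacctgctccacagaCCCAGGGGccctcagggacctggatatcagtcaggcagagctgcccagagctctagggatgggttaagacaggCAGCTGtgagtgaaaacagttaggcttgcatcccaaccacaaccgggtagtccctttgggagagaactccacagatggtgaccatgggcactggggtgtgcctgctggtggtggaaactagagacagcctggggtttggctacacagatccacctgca
Vpreb3: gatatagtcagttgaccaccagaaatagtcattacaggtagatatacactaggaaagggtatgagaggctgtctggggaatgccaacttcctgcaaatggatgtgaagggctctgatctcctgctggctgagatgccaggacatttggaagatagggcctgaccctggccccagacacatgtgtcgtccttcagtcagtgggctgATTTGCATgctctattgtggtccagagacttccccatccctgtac
Rag1: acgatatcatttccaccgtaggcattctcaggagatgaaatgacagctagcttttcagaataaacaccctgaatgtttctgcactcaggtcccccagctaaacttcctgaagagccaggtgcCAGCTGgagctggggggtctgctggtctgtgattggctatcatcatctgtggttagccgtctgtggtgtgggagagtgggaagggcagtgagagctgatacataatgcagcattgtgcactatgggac
Igll1 held an EBF1 core and an E-box, Vpreb3 the octamer and Rag1 an E-box, and none of the letters was found in the Vpreb1 window. Of 32851 promoter windows of this length, 11.8% held the EBF1 core, 1.60% the octamer and 13.0% the E-box. RefSeq windows were matched for 75 of the 101 genes in the 12 lists used below, and of their 100 windows 17 held the EBF1 core, 3 the octamer and 13 the E-box. A match describes the letters and is not a binding site.

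The label was checked against B cell marker genes that the limits did not use. In the 353 control and 18 GC B cells, Ebf1 was at 2263 and 390 CPM (UMIs of a gene per 1000000 UMIs of the set), Pax5 at 298 and 72.1 CPM and Vpreb3 at 1315 and 42.0 CPM, while Vpreb1 was at 339 CPM in control and at 0 in GC. Genes outside the limits were ranked by the log2 ratio, with 50 CPM added, of control B cells over the other kept control barcodes. The highest were Ebf1, the factor that commits cells to the B lineage (2263 against 7.57 CPM), and Vpreb3, a chaperone-like partner of early immunoglobulin chains (1315 against 3.18). Next came Cd74, the invariant chain of MHC class II (2259 against 69.3), and Ly6d, a surface protein of B-committed progenitors (1103 against 38.0). The other leading genes by this rule were Ighg2c, Hes1, H2-Aa, Bach2, Id3, H2-Eb1, H2-Ab1, Cd72, Vpreb1, Ptprcap and Spib. On plain CPM the order differs, with Vpreb1 (339 against 0.848) above Cd74. Ebf1 was found in 334 of 353 cells and Vpreb3 in 299, whereas Ighg2c, a heavy-chain constant region, was found in 28.

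Some barcodes within the limits also carried RNA of another lineage. In 19 control and 3 GC members, Cd79a, Cd79b and Ms4a1 together were under 0.05% of the UMIs, a limit chosen after seeing the data. In control the limit falls in no gap, with the nearest members at 480 CPM of these genes below it and 508 above. In GC the nearest stood at 235 and 1384 CPM. The 19 in control held 7363 to 51229 UMIs and 17.9% of all member UMIs, and 15 of them had at least 10 UMIs of the myeloid lysozyme Lyz2. The 3 in GC held 70.5% of the member UMIs. One of these, with 67945 UMIs, had 2092 UMIs of Igkc, 508 of Ighm and 147 of Jchain, another (36527 UMIs) had 237 of Lyz2, and the last (12942 UMIs) had 5 of the T cell gene Cd3e. T cell markers summed to 288 CPM over the 18 GC B cells, and all 5 were at 0 in the other 15. B cells of GC and control are therefore compared over all members and again over the 334 control and 15 GC members above this limit, called receptor-positive B cells here. A remaining control member of 54002 UMIs had 25322 UMIs of Igkc, 72.8% of the Igkc of all control members, and 6760 of Ighg2c. It also had 132 UMIs of Jchain and 173 of Mzb1, another plasma cell marker. Neutrophil markers summed to 30776 CPM in receptor-positive control B cells, where S100a9 was the most abundant, and 2321 CPM in those of GC, where S100a8 was. Of these cells, 26 of 334 and 0 of 15 had at least 10% of their UMIs from granule and hemoglobin genes. The part of these genes in the levels below was not tested. Control and GC shared 7 kept barcodes and no B cell barcode.

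Of kept barcodes with Cd79a, 353 of 433 in control and 18 of 54 in GC lay inside all limits. In control, 48 and 22 kept barcodes with Cd79a fell outside with a marker sum of 1 and 2, while 7 had a sum of 3, 1 had 4 and 345 were above 5. In GC, 17 and 6 fell outside with 1 and 2, 2 had a sum of 3 and 16 were above 5. The highest Jchain share inside was 0.244% in control and 0.216% in GC, and the lowest outside was 1.69% (7 barcodes over the limit) and 0.582% (13 barcodes).

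B cells made up 8.88% of kept control barcodes (353 of 3977, 95% interval 8.01% to 9.80%) and 0.376% of kept GC barcodes (18 of 4788, 0.223% to 0.593%). The share was 23.6-fold lower in the GC library (14.7- to 40.3-fold). With receptor-positive B cells alone it was 8.40% (334 cells) against 0.313% (15 cells), 26.8-fold lower (16- to 48.4-fold). The depth of the libraries was close, with 41239842 UMIs in control and 45876714 in GC, a median of 6337 and 5726 UMIs per kept barcode, and a median of 3635 and 3580 UMIs per B cell. The fracture callus libraries of the same series come from mice with a broken bone, whose prednisolone was a daily injection by the study's text and a pellet by the labels, so treatment and injury both differ from trabecular bone. There, where the barcode matrix of the GC library lists called barcodes only, the same limits took 550 of 7133 control barcodes (7.71%) and 243 of 7318 GC barcodes (3.32%), 2.32-fold lower (1.99- to 2.71-fold). Over the kept barcodes of trabecular bone, B cell markers stood at 0.0505 of the control level in GC, against 3.01 for T cell markers, 1.5 for plasma cell markers, 1.5 for NK cell markers, 0.809 for neutrophil markers, 0.932 for monocyte and macrophage markers, 1.80 for erythroid markers and 1.20 for basophil and mast cell markers. Markers of plasmacytoid dendritic cells stood at 0.452, of megakaryocytes at 0.330 and of stromal cells at 3.40. With 1 library each, the treatment and the library cannot be told apart.

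**Figure D1:**
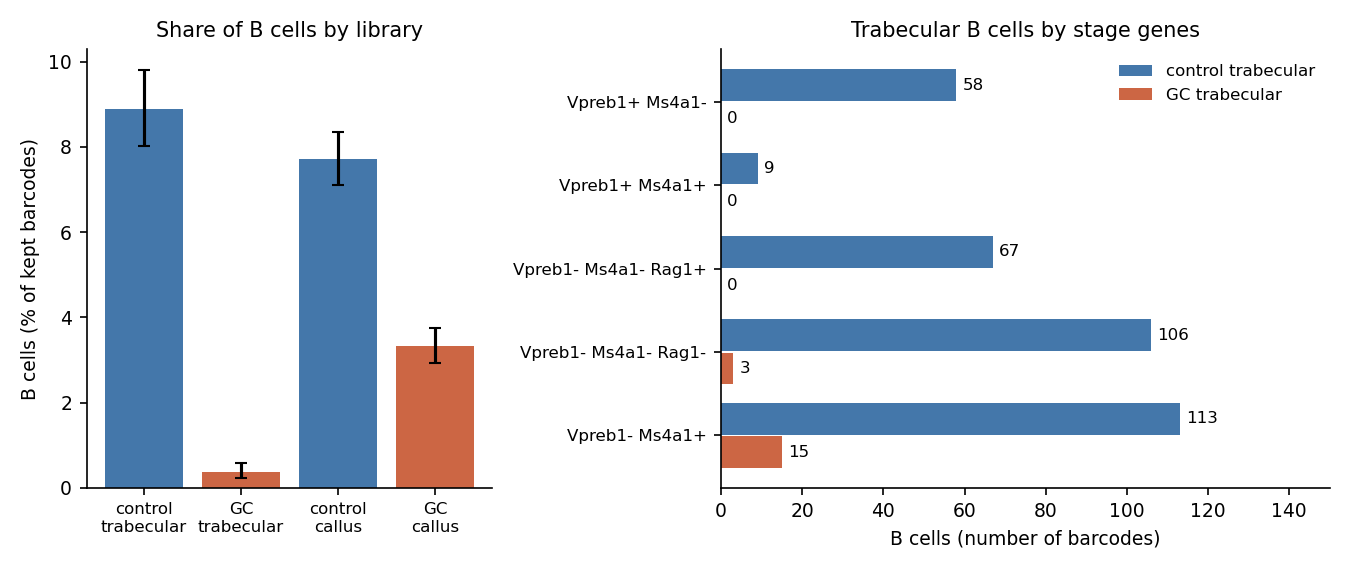
Panel A plots B cells as a percentage of kept barcodes in the 4 libraries, with bars from 0 and 95% counting intervals. Panel B plots the number of B cells of trabecular bone in each stage group. The GC bar of trabecular bone (0.376%) is far below that of control (8.88%), and GC cells appear in only 2 of the 5 stage groups.

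In control, the B cells were spread over the stages. Vpreb1 was detected in 67 of 353 cells (19.0%, 15% to 23.5%), Rag1 in 93 (26.3%, 21.8% to 31.3%) and Ms4a1 in 122 (34.6%, 29.6% to 39.8%). With each cell thinned at random to 1000 UMIs, which leaves out 5 control cells, the shares were 12.4%, 11.2% and 20.4%. In 2579 control barcodes rich in granulocyte genes, which should lack these genes and had a median of 6235 UMIs, Vpreb1 was found in 0.427%, Ms4a1 in 0.155% and Rag1 in none, which allows a share of up to 0.116%. No cell had all 3 genes, Rag1 and Vpreb1 met in 18 cells, Rag1 and Ms4a1 in 8, and Vpreb1 and Ms4a1 in 9.

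The control cells were divided by these 3 genes. There were 58 with Vpreb1 and no Ms4a1 (Vpreb1+ Ms4a1-, 16.4%), 67 with Rag1 alone (19.0%), 113 with Ms4a1 and no Vpreb1 (Vpreb1- Ms4a1+, 32.0%), 9 with both Vpreb1 and Ms4a1 (2.55%) and 106 with none of the 3 (30%). The 9 cells with both genes were deep, at a median of 23380 UMIs, against 9515 in Vpreb1+ Ms4a1- cells, 3185 in Rag1 cells, 3326 in Vpreb1- Ms4a1+ cells and 3978 in cells with none. A cell with no UMI of a gene may still express it, so the groups are ranges of detection and not sharp stages. Of the 19 control members with receptor genes under 0.05%, 16 were among the 106 cells with none of the 3 genes, and receptor-positive cells numbered 56, 67, 112, 9 and 90 in the 5 groups, in the order given.

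In GC, the stages before Ms4a1 were not seen. Vpreb1, Igll1 and Rag1 were each found in 0 of 18 cells, as were Vpreb2, Rag2 and Dntt. A count of 0 allows a share of cells with a UMI of up to 16.7% by 3 counts, or up to 18.5% by the Clopper-Pearson interval, and sets no limit on cells that express the gene below detection. Ms4a1 was found in 15 of the 18 (83.3%, 58.6% to 96.4%), and in 9 of 17 (52.9%) after thinning. Of the 15 receptor-positive cells, 14 had Ms4a1. Set against all kept barcodes, cells with Vpreb1 were 67 of 3977 and 0 of 4788, at least 26.9-fold lower in GC against a floor of 3 cells, and cells with Rag1 were 93 and 0, at least 37.3-fold lower against that floor. Cells with Igll1 were 53 and 0, at least 21.3-fold lower. Such floors leave out the counting error of control, and the exact intervals, which include it, allow ratios of GC over control of up to 0.0470 for Vpreb1, 0.0336 for Rag1 and 0.0599 for Igll1. Cells with Vpreb3 were 299 and 6, 60.0-fold lower (ratio 0.0167, 0.00607 to 0.0367). Cells with Ms4a1 were 122 and 15, 9.79-fold lower (ratio 0.102, 0.0555 to 0.175). Ms4a1 is a gene the limits used, and no test sets these ratios against each other. In callus, cells with Vpreb1 were 12 and 1, and cells with Ms4a1 226 and 87.

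Within control, the Vpreb1+ Ms4a1- cells carried pre-B cell receptor and cell cycle genes, and the Vpreb1- Ms4a1+ cells carried light chains, MHC class II and follicular genes. Both groups come from 1 library and were chosen on Vpreb1 and Ms4a1, so the differences are a description. Igll1 reached 612 CPM (513 UMIs, in 43 of 58 cells) in Vpreb1+ Ms4a1- cells and 0 UMIs in the 113 Vpreb1- Ms4a1+ cells. Dntt, which adds bases at the joints, was at 228 CPM (191 UMIs) and at 0. Rag1 was found in 18 of the 58 Vpreb1+ Ms4a1- cells and 8 of the 113 Vpreb1- Ms4a1+ cells. Vpreb2, a near copy of Vpreb1 whose reads may be split between the genes, was at 85.9 CPM in Vpreb1+ Ms4a1- cells.

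All 12 cell cycle genes were at least 2-fold higher in Vpreb1+ Ms4a1- than in Vpreb1- Ms4a1+ cells, with a median log2 ratio of 2.16 on summed CPM with 50 CPM added, against 5.46% of the 6521 genes with enough UMIs and a median of 0.10 over all of them. Stmn1, which regulates microtubules, was at 1366 against 55.3 CPM, and the proliferation marker Mki67 at 575 against 49.2. At least 3 of the 12 genes were found in 39 of 58 Vpreb1+ Ms4a1- cells (67.2%), 10 of 67 Rag1 cells (14.9%), 49 of 106 cells with none of the 3 genes (46.2%), 17 of 113 Vpreb1- Ms4a1+ cells (15%) and 6 of the 9 deep cells with both Vpreb1 and Ms4a1 (66.7%). At 1000 UMIs each the shares were 53.4%, 8.96%, 32.4%, 0% (of 112 cells) and 66.7%. In receptor-positive cells alone they were, before thinning, 37 of 56 (66.1%), 10 of 67, 36 of 90 (40%), 16 of 112 (14.3%) and 6 of 9. All 12 genes were at least 2-fold higher there too, with a median log2 ratio of 2.55, against 6.09% of 6272 genes. Stmn1, Igll1, Tuba1b, Pclaf and Dut had the highest log2 ratios of all genes tested, at 3.75, 3.73, 3.61, 3.55 and 3.25.

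The Rag1 cells were the group with the highest summed levels of several B lineage regulators and with few cell cycle genes. Ebf1 was at 5511 CPM in them, against 2008 in Vpreb1+ Ms4a1- and 2123 in Vpreb1- Ms4a1+ cells. The repressor Bach2 was at 976 CPM, against 334 and 289. The Ets factor Spib was at 891, against 210 and 387, and Sox4, a factor of early progenitors, at 676, against 196 and 100. Syk, the kinase below the receptor, was at 761 CPM against 163 and 369, and its adaptor Blnk at 721 against 295 and 254. Myb and Lef1, 2 progenitor factors, were higher in Vpreb1+ Ms4a1- than in Vpreb1- Ms4a1+ cells, at 351 against 98.3 and 205 against 32.8 CPM.

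Light chains and antigen presentation were on the late side. Leaving out Cd79a, Cd79b, Ighm and Ms4a1, which chose or divided the cells, 5 of 5 B cell receptor genes, 7 of 7 tested mature B cell genes and 6 of 7 MHC class II genes were at least 2-fold lower in Vpreb1+ Ms4a1- than in Vpreb1- Ms4a1+ cells, where 3.04% of all genes tested were. Their median log2 ratios were -3.55, -1.92 and -3.15, and the counts were the same in receptor-positive cells (against 3.17% of all genes tested), with medians of -3.58, -1.95 and -3.14. A light chain was called where kappa (Igkc) or lambda (Iglc1, Iglc2 and Iglc3 together) had at least 5 UMIs and more than the other. Kappa was called in 29 of 58 Vpreb1+ Ms4a1- cells and lambda in 1. In Rag1 cells they were called in 52 and 10 of 67, in Vpreb1- Ms4a1+ cells in 89 and 22 of 113, and in cells with none of the 3 genes in 76 and 8 of 106. In receptor-positive cells alone kappa was called in 28 of 56, 52 of 67, 88 of 112 and 74 of 90. In granulocyte-gene barcodes kappa was called in 11 of 2579. Cd74 had a median of 0 per 10000 UMIs in Vpreb1+ Ms4a1- and Rag1 cells and of 110 in Vpreb1- Ms4a1+ cells, and H2-Aa, the alpha chain of I-A, of 0, 0 and 22.9. Fcer2a (CD23), a follicular gene, had 68 UMIs in Vpreb1- Ms4a1+ cells and 0 in Vpreb1+ Ms4a1- cells. Ccr7, which guides cells to lymphoid tissue, was at 578 against 44.1 CPM and Ighd (IgD) at 309 against 22.7. The lowest log2 ratios were those of Ighg2c (-7.84), Igkc (-6.41), Cd74 (-5.08), Iglc2 (-4.81) and Iglv1 (-4.43), the first pair of which rests largely on the single cell with 25322 Igkc UMIs. Without that cell the Igkc value was -3.48, Ighg2c had too few UMIs to be tested, and as a mean over cells the Igkc value was -2.95.

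For the remaining lists, the counts between these stages stand beside 3.04% lower and 5.46% higher over all genes tested. Of 7 homing genes 4 were at least 2-fold lower in Vpreb1+ Ms4a1- cells, of 11 B cell receptor signaling genes 2 were lower and 1 higher, and of 15 transcription factors 3 were lower and 2 higher. Of 6 apoptosis genes tested none passed 2-fold in either direction, and of 3 cytokine and early receptor genes tested 1 was lower. Among 11 genes known to respond to GCs, 5 were lower and 1 higher in the Vpreb1+ Ms4a1- cells of this untreated library. In receptor-positive cells the counts of these lists were the same but for 2 transcription factors lower, 4 GC response genes lower and 5 apoptosis genes tested. Over all genes tested, 3.17% were lower and 6.09% higher there. Without the cell of 25322 Igkc UMIs, no GC response gene was higher, and 3 signaling genes were lower and none higher. The shares over all genes were then 3.50% lower and 4.90% higher. Tsc22d3 (GILZ), a classic GC target, was at 100 CPM against 508.

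**Figure D2:**
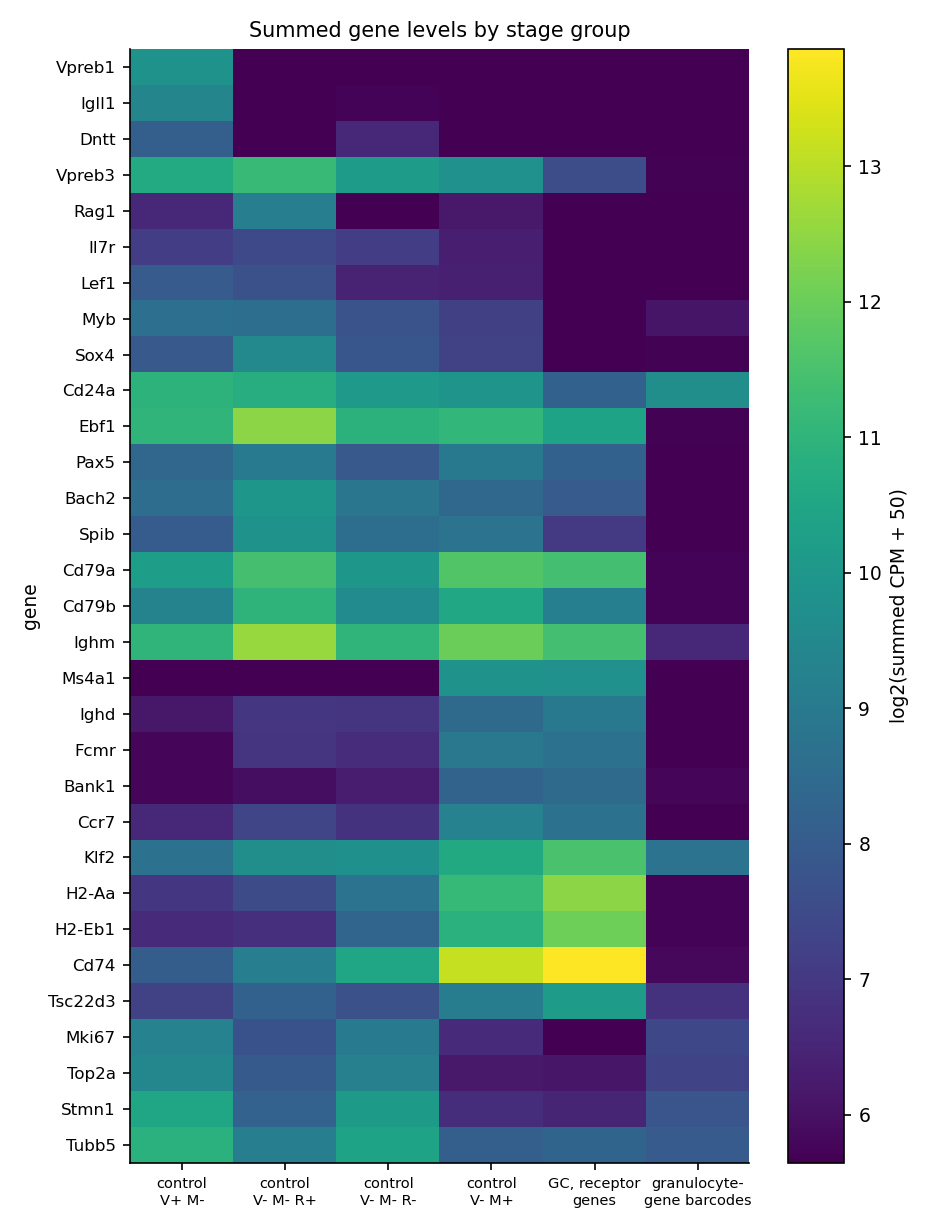
Heat map of B cell, MHC class II and cell cycle genes down the side in 4 control stage groups (V for Vpreb1, M for Ms4a1, R for Rag1), receptor-positive GC B cells and control granulocyte-gene barcodes, with color giving log2 of the summed CPM + 50. Igll1 and Dntt are highest in the V+ M- column, Ebf1 and Bach2 in the R+ column, and Cd74 and H2-Aa in the V- M+ and GC columns, while cell cycle genes are high in both the V+ M- and the V- M- R- columns.

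**Figure D3:**
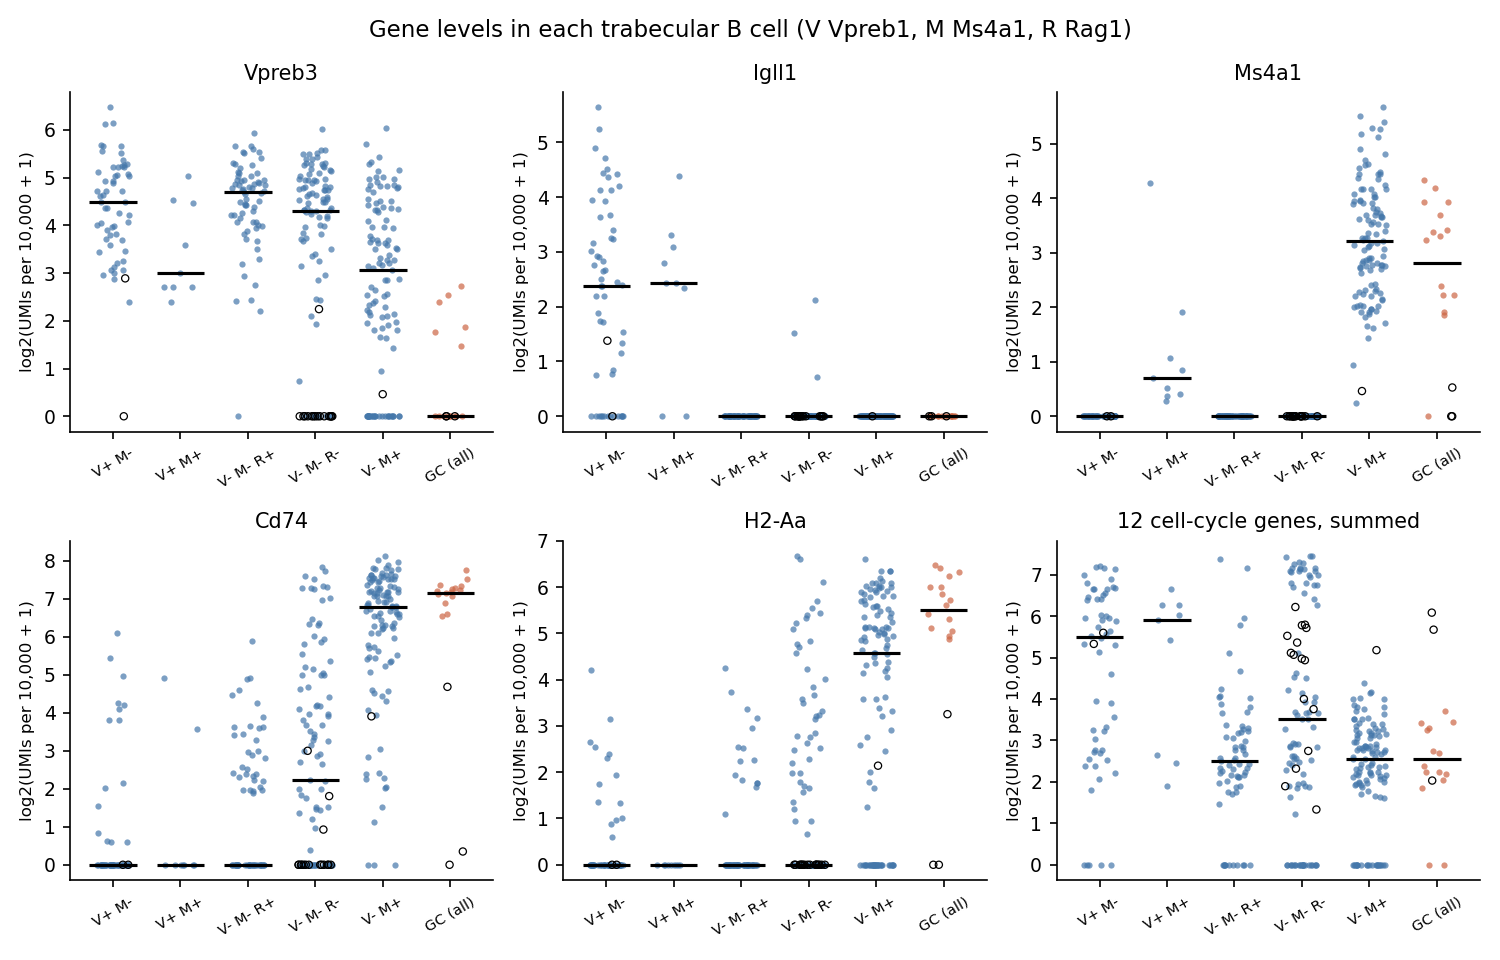
Each point is a B cell, plotted as log2 of the UMIs per 10000 plus 1 for 5 genes and for the sum of 12 cell cycle genes, by control stage group (blue) and in GC (orange). Lines are medians, and open circles are members with receptor genes under 0.05% of UMIs. Cd74 and H2-Aa are near 0 in most Vpreb1+ Ms4a1- and Rag1 cells, and high in most Vpreb1- Ms4a1+ and GC cells.

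Levels summed over all barcodes of a library do not depend on the choice of cells, although fewer cells of a type and less RNA per cell cannot be told apart in them. Of 99 list genes tested, 22 were at least 2-fold lower in GC and 3 higher on log2 CPM with 5 CPM added, against 0.540% and 0.435% of all 12413 genes tested. The median log2 ratio was -0.35 over the list genes and -0.05 over all genes. Without Vpreb1, Rag1, Cd79a, Cd79b, Ighm and Ms4a1, which chose or divided the cells, 18 of 93 were lower and 3 higher (median -0.34). By list, 2 of 3 pre-B cell receptor, 3 of 5 B cell receptor and 2 of 8 mature B cell genes were then lower. All 12 lists were drawn up with earlier results of these data known.

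The pre-B cell receptor list had the lowest median of the 12 lists. Of its 4 genes, 3 were at least 2-fold lower, with a median log2 ratio of -2.31. Vpreb1 stood 52.1-fold lower in GC (25 CPM in control, 0.480 in GC) and Vpreb3 42.6-fold lower (95.6 and 2.25). Igll1 had 733 UMIs in control and 2 in GC, a ratio of CPM of 0.00245 (0.000296 to 0.00889). Rag1 had 206 UMIs in control and 0 in GC, at least 76.4-fold lower from a floor of 3 UMIs. With 5 CPM added, the V(D)J recombination list had a median of -0.98 and neither of its 2 tested genes passed 2-fold. Dntt was at 9.65 and 2.53 CPM, and all of its 116 UMIs in GC lay outside the B cells.

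Among lineage and receptor genes, Ebf1 had the lowest log2 ratio of all genes tested (-4.08). Of 15 transcription factors 7 were at least 2-fold lower, with a median of -0.97. Ebf1 stood 33.0-fold lower in GC (162 and 4.93 CPM), Pax5, which holds B cell identity, was 65.6-fold lower (21.4 and 0.327 CPM), and Spib 53.9-fold lower (28.2 and 0.523). Of 8 B cell receptor genes 5 were lower, with a median of -1.07. Cd79a and Cd79b, its signaling chains, were at 119 and 73.3 CPM in control and 8.87 and 6.63 in GC. Of 11 signaling genes 4 were lower, with a median of -0.45, among them Blnk, 12.2-fold lower (25.7 and 2.11). Ms4a1 was 9.79-fold lower (11.7 and 1.20 CPM) and Ighd 10.9-fold lower (7.10 and 0.654). Of 9 mature B cell genes tested 3 were lower, with a median of -0.55.

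Genes shared with other cells of the bone stood closer to the control level. Igkc was at 2858 CPM in control and 4410 in GC, and Ighm at 276 and 244, and only 1.19% of the Igkc and 5.83% of the Ighm UMIs of GC lay in B cells. None of the 7 MHC class II, 7 homing, 12 cell cycle, 7 apoptosis and 6 cytokine and early receptor genes passed 2-fold in either direction, with medians of -0.34, -0.16, -0.21, 0.12 and 0.07. Il7r, the interleukin 7 receptor chain of B cell precursors and T cells, was at 10.3 CPM in control and 17.9 in GC. Of 11 GC response genes 3 were at least 2-fold higher in GC, with a median of 0.17: Fkbp5 (15.1 and 56.5 CPM), Klf9 (38.3 and 85.0) and Tsc22d3 (72.9 and 156).

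Part of the RNA of B cell genes in GC was outside the B cells. Members held 86.7% of the Cd79a UMIs of control and 35.1% of those of GC. Other kept GC barcodes held 241 Cd79a UMIs, 219 of them in 14 barcodes over the Jchain limit. Ebf1 had 153 UMIs in 45 other kept GC barcodes, only 6 of them in barcodes over that limit. Vpreb3 had 91 UMIs in 15 other kept GC barcodes, 87 of them in 11 barcodes over the Jchain limit. Vpreb1 had 21 UMIs in 20 other kept GC barcodes, 19 of which held a single UMI.

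**Figure D4:**
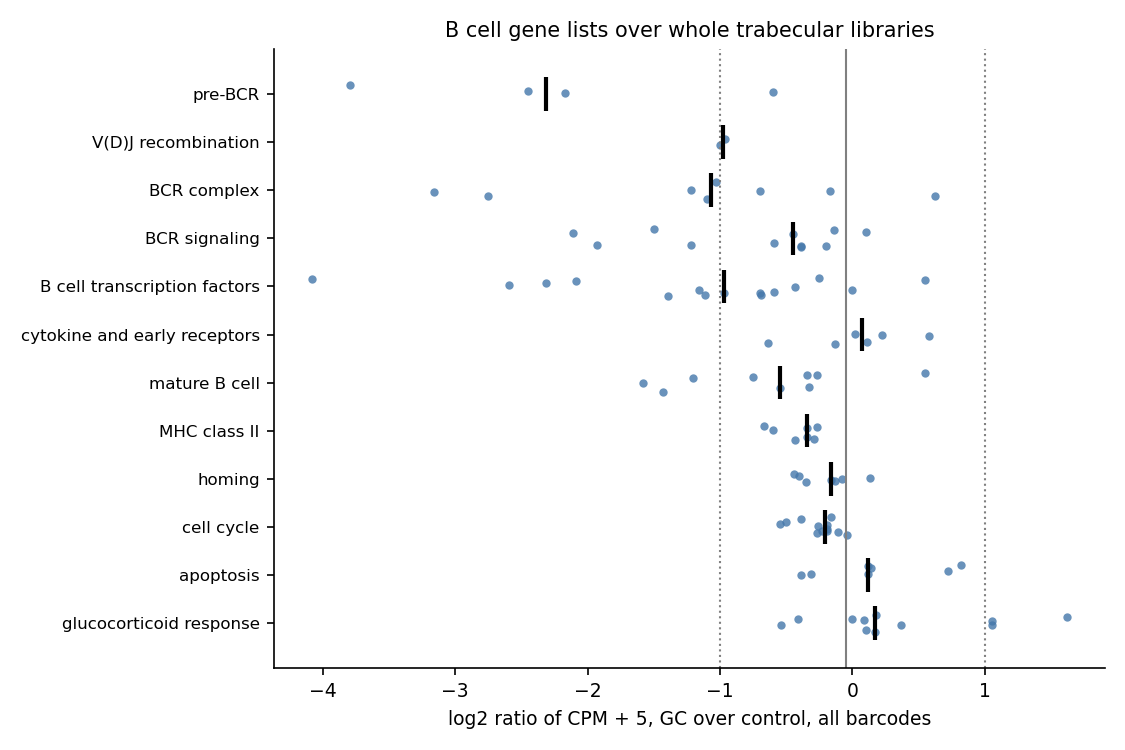
Log2 ratio of GC over control of CPM + 5 over all barcodes, with a point for each list gene and a bar at the list's median. The gray line is the median of all genes tested (-0.05) and dotted lines mark 2-fold. The pre-B cell receptor list has the lowest median (-2.31), and 3 GC response genes lie above 2-fold.

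The 15 receptor-positive B cells of GC were looked at individually. They held 520 to 5617 UMIs. Cd79a had 1 to 19 UMIs in them, with a median of 7, and Ighm 1 to 26, with a median of 5. Igkc was present in all 15, at 2 to 52 UMIs, and kappa was called in 14 and lambda in none. In granulocyte-gene barcodes of the same library, of median 5824 UMIs, Igkc was found in 59.8% and kappa called in 1.48%. Cd74 was present in all 15 at 5 to 91 UMIs (median 45) and H2-Aa in all 15 at 2 to 37 UMIs (median 17), against 4.69% and 0.903% of granulocyte-gene barcodes with a UMI. Ebf1 was found in 14 cells, Pax5 in 9, Ighd in 8 and Vpreb3 in 6, the last at no more than 2 UMIs. Mki67 and Cd3e were at 0 in all 15, and S100a8, the most abundant neutrophil marker of these cells, was present in all 15 at 1 to 7 UMIs.

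Compared with all control B cells, the GC B cells were richer in MHC class II RNA and poorer in precursor RNA. Over all members, 22 of 98 list genes were at least 2-fold lower and 7 higher in GC (50 CPM added), against 1.86% and 0.992% of 8472 genes tested. Over receptor-positive cells 30 were lower and 19 higher, against 7.58% and 2.11% of 7812 genes with a median of -0.28. Leaving out Cd79a, Cd79b, Ms4a1 and Ighm, which the limits used, and Vpreb1 and Rag1, which divided the control cells, 19 of 92 were lower and 7 higher over all members, and 28 and 18 in receptor-positive cells. The GC values rest on 166525 UMIs over all members and far fewer in the 15 cells, so most single genes have wide intervals.

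MHC class II genes were higher in both sets. All 7 were at least 2-fold higher in receptor-positive GC B cells, with a median log2 ratio of 2.43, and 4 of 7 over all members, with a median of 1.24. Cd74 was at 14864 CPM in GC and 2720 in control, 5.46-fold (5.05 to 5.90), and 2.39-fold over all members. H2-Aa was 7.84-fold higher (6.86 to 8.94), H2-Eb1 7.62-fold and H2-Ab1 6.01-fold. Over all members these ratios were 3.41, 3.61 and 2.91.

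Among genes of the mature B cell list other than Ms4a1, 3 of 8 were at least 2-fold higher in the receptor-positive cells, with a median of 0.30. Over all members 1 was lower and 0 were higher, with a median of -0.28. Set against control Vpreb1- Ms4a1+ cells, 3 of 7 tested were lower and 1 higher. Ltb (lymphotoxin beta) was 7.31-fold higher (4.38 to 11.7), from 21 UMIs in GC, and 2.96-fold over all members. Ighd, counted in the B cell receptor list, was 3.92-fold higher (2.41 to 6.07), and 1.40-fold over all members with an interval of 0.861 to 2.16. Ms4a1, which both limits used, was at 4.11-fold (2.91 to 5.67) and 1.58-fold, as a description only. Klf2, a factor of quiescent recirculating lymphocytes counted in the transcription factor list, was 3.61-fold higher (3.02 to 4.29), and 1.52-fold over all members.

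Precursor genes were lower in both sets. Of the pre-B cell receptor list 3 of 4 were at least 2-fold lower, with medians of -2.94 in receptor-positive cells and -2.75 over all members. Vpreb3 stood at 0.0895 of control (0.0360 to 0.185) and at 0.0320 over all members. Vpreb1 was at 0 UMIs in GC and 407 CPM in receptor-positive control cells, at least 6.66-fold lower, and Igll1 at least 4.79-fold lower. Of 15 transcription factors 7 were lower in receptor-positive cells and 9 over all members. Sox4 was at 0 UMIs in both sets (at least 4.08-fold lower in receptor-positive cells), and Ebf1 stood at 0.482 (0.372 to 0.615) and 0.173. The heat-stable antigen Cd24a, high in immature B cells, stood at 0.145 (0.0749 to 0.254) and 0.439. Of the 3 V(D)J recombination genes 2 were lower in both sets, and none had a UMI in a GC B cell.

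The cell cycle result depended on the members with receptor genes under 0.05%. In receptor-positive cells 11 of 12 genes were at least 2-fold lower in GC, with a median of -1.99, and Mki67 was at 0 UMIs against 401 CPM, at least 6.56-fold lower. Stmn1 had 2 UMIs, a ratio of 0.0427 (0.00516 to 0.154). Over all members 1 of 12 was lower, with a median of -0.12, and Mki67 stood at 0.994 (0.762 to 1.28). All of its 65 GC UMIs lay in barcodes with low receptor genes, 46 in that of 67945 UMIs and 19 in that of 36527.

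For the other lists the values over receptor-positive cells came first and those over all members second. The 5 B cell receptor genes that the limits did not use had 1 lower and 1 higher in receptor-positive cells and none lower and 1 higher over all members, with medians of -0.27 and 0.33. Log2 ratios changed sign between the sets for Cd79a (0.46 and -0.87), Ighm (-0.34 and 0.48) and Igkc (-1.24 and 0.14), and for 21 of the 98 list genes in all. Without the control cell of 25322 Igkc UMIs, Igkc stood at 0.92 and 1.97, so that its sign in receptor-positive cells turned, and the medians of the 5 genes were 0.12 and 0.48. The Igkc value over all members also rests on the GC barcode of 67945 UMIs, which held 86.9% of the Igkc of all GC members. Without that barcode alone the Igkc value was -2.03. Signaling genes had 3 of 11 lower in each set, with 1 higher and none higher, and medians of -0.09 and -0.60. Cytokine and early receptor genes had 2 of 4 lower in each set, with 1 higher and none higher, and medians of -0.88 and -0.66. Their summed level in receptor-positive cells was 367 CPM in GC, from 18 UMIs of 1 gene, and 285 in control. Over all members it was 162 CPM in GC and 265 in control. Homing genes had 1 of 7 and 0 of 7 higher, with medians of 0.23 and -0.13, and apoptosis genes 0 of 7 and 1 of 7 higher, with medians of 0.04 and 0.18. Of the GC response genes, 3 of 11 were higher and 1 lower in receptor-positive cells, with a median of 0.22, and 1 of 11 was higher over all members, with a median of 0.16. Tsc22d3 was 4.59-fold higher in receptor-positive GC cells (3.40 to 6.09), present in 14 of 15 cells, and 1.79-fold over all members (1.35 to 2.33). Fkbp5 rested on 4 UMIs in receptor-positive GC cells and was 6.10-fold higher (1.56 to 17.4).

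Over all members the lowest log2 ratios were those of Ighg2c (-5.71), S100a9 (-4.47), Camp (-4.31), S100a8 (-4.19) and Vpreb3 (-3.89), and the highest those of Jchain (2.91), Ly6a (2.77), Ccl5 (2.40), Klf6 (2.03) and Igha (1.97). S100a9, Camp and S100a8 are neutrophil genes, and Jchain lay in the GC barcode of 67945 UMIs for 147 of its 149 UMIs. In receptor-positive cells the highest were Apoe (3.08), H2-Aa (2.88), H2-Eb1 (2.82), Cd83 (2.77) and H2-Ab1 (2.49), and the lowest Ighg2c (-5.99), Camp (-4.14), S100a9 (-3.81), S100a8 (-3.59) and Pclaf (-3.50).

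Since nearly all receptor-positive GC B cells had Ms4a1, they were also set beside the 112 receptor-positive control cells that were Vpreb1- Ms4a1+. This comparison was added after seeing the data and uses the same GC cells as the previous one. The MHC class II genes were closer here, with a median log2 ratio of 0.92 with 50 CPM added. On that scale 2 of 7 were at least 2-fold higher, against 1.82% of 3297 genes tested, and 1 of 7 without the control cell of 25322 Igkc UMIs. The folds that follow are ratios of CPM with nothing added, and lie farther from 1. Cd74 was 1.57-fold higher in GC (1.45 to 1.70), H2-Aa 2.35-fold (2.05 to 2.69), H2-Eb1 2.15-fold (1.84 to 2.50) and H2-Ab1 2.02-fold (1.71 to 2.38). Ighd stood at 1.38 with an interval that includes 1 (0.839 to 2.17). Ms4a1 stood at 0.907 (0.641 to 1.25), a value that the choice of control cells by Ms4a1 bears on. Klf2 was 1.88-fold higher (1.56 to 2.26), Ltb 2.60-fold (1.52 to 4.26) and Tsc22d3 2.08-fold (1.52 to 2.80).

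Some genes were lower in the GC cells than in these control cells. With 50 CPM added and the 6 genes that chose or divided the cells left out, 17 of 68 list genes tested were at least 2-fold lower and 5 higher, against 9.65% of all genes lower and a median of -0.16. Without the control cell of 25322 Igkc UMIs, 18 were lower and 3 higher, against 13.0% of all genes lower. Vpreb3 stood at 0.159 (0.0637 to 0.331), Cd24a at 0.288 (0.148 to 0.510), Spib at 0.199 (0.0537 to 0.518) and Ebf1 at 0.594 (0.455 to 0.764). Cd79a stood at 0.811 (0.674 to 0.969), Cd79b at 0.351 (0.228 to 0.519) and Ighm at 0.606 (0.503 to 0.724), but these genes were used by the limits and their values are a description only. By list and with those 6 genes left out, 4 of 5 B cell receptor, 4 of 11 signaling, 5 of 14 transcription factor and 3 of 7 mature B cell genes were at least 2-fold lower. None of 7 homing, 3 cell cycle, 4 apoptosis and 7 GC response genes tested passed 2-fold in either direction with 50 CPM added, although Tsc22d3 did so in plain CPM (2.08-fold). The highest log2 ratios with 50 CPM added were those of Apoe (2.13), Gem (1.89), Atf3 (1.82), Fosl2 (1.81) and Sesn1 (1.70), on 10 to 32 UMIs in GC. The lowest log2 ratios were those of Ighg2c (-8.20), Slpi (-5.08), Iglv1 (-4.64), Camp (-4.41) and Ly6c2 (-3.59). Ighg2c, and Igkc with a ratio of plain CPM of 0.101, rest on the control cell with 25322 Igkc UMIs. Without it the Igkc ratio was 0.775 (0.688 to 0.872), Ighg2c had too few UMIs to be tested, and 3 of 5 B cell receptor genes were at least 2-fold lower.

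**Figure D5:**
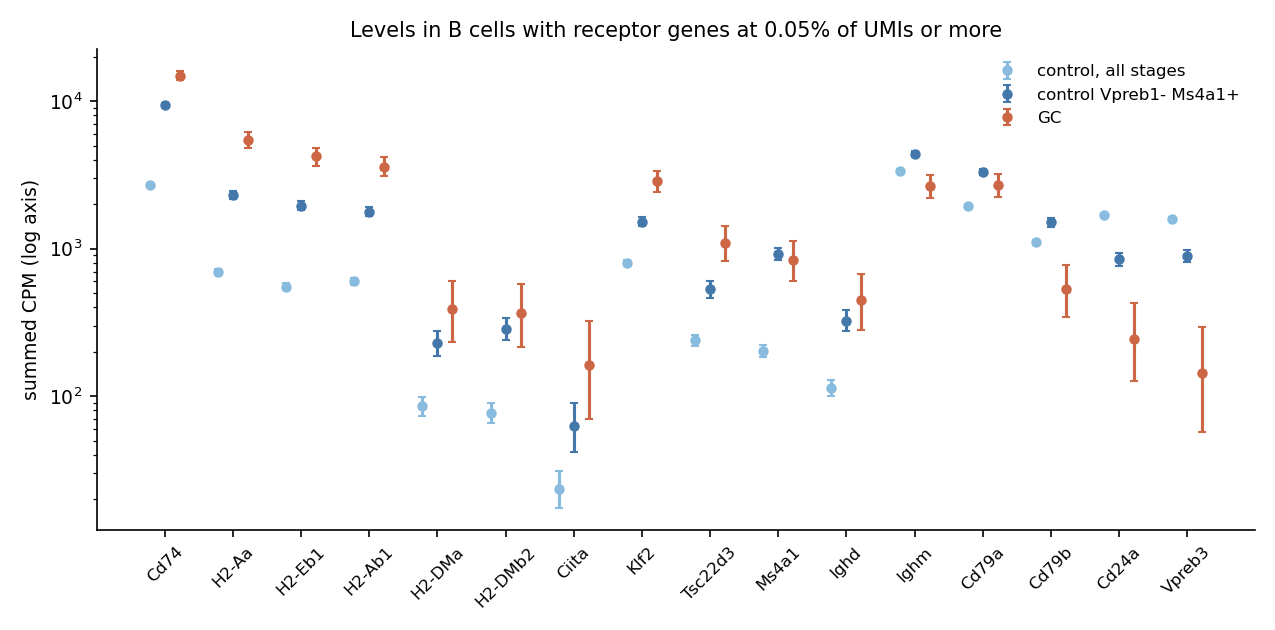
Summed CPM (log axis) with 95% Poisson intervals of 16 genes in receptor-positive B cells of control (all stages), of control Vpreb1- Ms4a1+ cells and of GC. The GC points for Cd74 (14864) and H2-Aa (5457) lie above both control sets. Cd79a, Cd79b, Ms4a1 and Ighm were used to select the cells.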

How the data were processed

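The authors deposited counts of UMIs per gene and barcode, without normalization, for 1 control and 1 GC library of trabecular bone (41239842 and 45876714 UMIs). The submitters' processing notes name Cell Ranger 5.0.1, Seurat 3.2.0 and mm10, and the matrix headers give Cell Ranger version 4. The deposited matrices list every barcode of these libraries, and no cell labels were used. Barcodes were filtered and B cells selected as the report states. Members and the 12 gene lists (101 genes) were chosen with earlier results of these data known.

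UMIs were summed over cells and scaled to CPM. Log2 ratios added 5 CPM over all barcodes (genes of at least 50 UMIs over both libraries) and 50 CPM in B cells (at least 20 UMIs). Shares have Clopper-Pearson intervals, CPM exact Poisson intervals and ratios exact conditional intervals, all at 95%. A count of 0 allows 3 counts. Genes were named from 3 sources. These were the list genes, of which only some are named, the 15 genes outside the limits with the highest log2 ratio (50 CPM added) in control B cells at 100 CPM or more, and the 5 highest and 5 lowest ratios of comparisons in B cells. Genes of other kinds were named after their values were seen, and 1 list gene is not reported here. Doublets were kept, and an alternative left out the highest doublet scores (simulated pairs, 0.8% per 1000 barcodes). Free RNA in barcodes under 100 UMIs held Cd79a at 92.2 CPM in control and 5.69 in GC, and granule and hemoglobin genes implied a free share of 2.26% and 1.87% of a typical B cell's UMIs. The scripts ran in Python 3.11.15 with pandas 2.3.3, scipy 1.17.1, scikit-learn 1.9.0, matplotlib 3.10.9 and numpy 2.4.6. The count and ratio steps were tested on simulated data. Gene positions came from GENCODE M21 and promoters from RefSeq, both on GRCm38. Callus entered only where named.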

Additional observations from a re-analysis of the deposited data

Results flagged for a closer look

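Values here are log2 of the summed CPM of a list in GC divided by that in control. Over receptor-positive B cells, the B cell receptor genes stood at -0.75 in trabecular bone and 0.85 in callus, but at 0.08 and 1.19 over all members. The mature B cell genes stood at 1.07 and -0.38 in receptor-positive cells, and at -0.25 and 0.02 over all members. The B cell receptor list includes Cd79a, Cd79b and Ighm, and the mature list Ms4a1. The limits used these genes, so the values of both lists are a description only. Homing genes stood at -0.36 in trabecular bone and 0.55 in callus over all members, but at 0.45 and 0.12 in receptor-positive cells. GC response genes stood at -0.24 and 0.43 over all members, but at 0.57 and 0.06 in receptor-positive cells. For each list the counting intervals of the 2 tissues lay on opposite sides of 0 in 1 of the 2 sets of cells only, which is what drew attention to these lists, out of 12 lists in 2 sets of cells. The difference between the tissues was not tested, since each condition has 1 library per tissue, and the callus mice also had a fracture and, by the study's text, daily injections. For the B cell receptor genes the values rest on single cells. A control cell of trabecular bone held 25322 Igkc UMIs, a GC cell of trabecular bone outside the receptor-positive set 2092, and a GC cell of callus 3842 of the 6437 UMIs of the list in receptor-positive cells. Without the cell of most Igkc in each library, the list stood at 0.20 in trabecular bone and -0.39 in callus in receptor-positive cells, each with the other sign, and at -0.54 and 0.01 over all members. Per cell, the median of the list in receptor-positive cells was 99.6 UMIs per 10000 in GC and 164 in control in trabecular bone, and 52.6 and 74.7 in callus.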

How the results depend on the processing

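The B cell share was lower in GC under each alternative run. The control share (8.88%) and the GC share (0.376%) became 6.46% and 0.213% with at most 5% mitochondrial UMIs, and 4.83% and 0.170% with only barcodes over 10% of the 99th percentile of the largest. Without the Jchain and Siglech limits the GC share was 0.647% and the ratio of GC over control 0.0709. In control, thinning to 1000 UMIs, thinning to 2000 UMIs and a minimum of 2 UMIs gave 12.4%, 14.9% and 14.7% for Vpreb1 (19.0%), 11.2%, 17.6% and 12.7% for Rag1 (26.3%) and 20.4%, 27.2% and 23.8% for Ms4a1 (34.6%), since these settings see fewer UMIs or ask for more.

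Over all barcodes, list genes at least 2-fold lower numbered 22 with 5 CPM added and 10 with 20 CPM, and those higher 3 and 1. In B cells of GC over control, 22 were lower with 50 CPM added, 35 with 5 CPM and 11 with 200 CPM. Those higher numbered 7, and 13 with 5 CPM, 4 with 200 CPM, 12 as a mean over cells, 17 without the GC member of most UMIs and 19 in receptor-positive cells. Between control stages, 37 were lower and 20 higher, and 23 and 11 with 200 CPM added. Thinning to 1000 UMIs left 13 higher of 69 tested. Among these counts, the share of all genes tested is given above only for the main settings and receptor-positive cells. The other counts are not read as results about the lists. A larger pseudocount lowers ratios of low genes by construction, and the other causes were not tested. Of 338 values computed for a selection of named genes under alternatives, 8 had the other sign: Igkc in B cells of GC over control (0.14, and -0.06 to -2.03 under 5 alternatives), Cd79a there (-0.87, and 0.46 in receptor-positive cells) and Ebf1 between control stages (-0.08, and 0.29 as a mean over cells and 0.16 thinned). Of 94 other values 27 left the main interval or count. Between all members and receptor-positive cells, 21 of 98 list genes changed sign, as did the list medians of B cell receptor (0.23 and -0.30) and homing genes (-0.13 and 0.23). Without the control cell of most Igkc, an alternative chosen after seeing the data, Igkc moved from 0.14 to 1.97 in GC over control and from -6.41 to -3.48 between control stages. Leaving out the highest doublet scores removed 25 of 353 control and 0 of 18 GC members. No paired analysis was possible because each condition has 1 library.

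The 18 GC cells, or 15 receptor-positive ones, limit every GC value. Intervals cover counting error only, and mice, libraries and handling cannot be told apart from the treatment.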
